A study of Mus musculus with 50 samples.

Results

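*Crebbp*, *Ep300*, *Kdm6a* and *Kdm6b* encode the enzymes that acetylate lysine 27 of histone H3 or remove its higher methylation states, and they were followed in mouse embryonic stem cells (ESCs) with altered PRC2. The 4 genes were taken by name, and all 4 were among the 18055 genes of the RNA-seq table and among the 13872 genes that passed a minimum mean level and were tested. WT cells were the male mouse ESC line E14TG2a. *Ezh2* KO cells carried a macrodeletion of *Ezh2*, and *Ezh1/2* dKO cells carried deletions of *Ezh1* and *Ezh2* made one after the other. *Ezh2* Y726D and *Ezh2* R685C cells carried point mutations of *Ezh2* (homozygous for Y726D) written with a single-stranded oligonucleotide into *Ezh1* KO cells, so that both also lacked *Ezh1*. Y726D replaces a tyrosine of the catalytic domain and was described by the study as catalytically dead. The mutant lines were made from E14TG2a with CRISPR/Cas9, and how many clones stand behind each genotype is not given in the sources used here. All lines were grown as ESCs in serum with LIF and the 2 inhibitors known as 2i. RNA-seq by a SMART-seq protocol covered all lines but *Ezh2* R685C, with 2 libraries per line, and each ChIP-seq or ATAC-seq target had 1 library per line. For ChIP-seq of the HA tag alone, *Ezh1/2* dKO cells were also transfected with a vector for tagged human EZH1 (HA-EZH1). These cells were selected with puromycin before collection. The study states that its experiments were repeated, but neither it nor the labels say that the paired RNA libraries came from separate cultures, so the p-values below measure the spread between these libraries, which may be technical.

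PRC2 is the complex that adds 1, 2 or 3 methyl groups to lysine 27 of histone H3 (H3K27me1, H3K27me2, H3K27me3), with EZH2 or EZH1 as its catalytic subunit and SUZ12 as a core subunit. The same lysine can instead carry an acetyl group (H3K27ac), which marks active promoters and enhancers. CBP, from *Crebbp*, and p300, from *Ep300*, are paralogous acetyltransferases that write H3K27ac and serve as coactivators for many transcription factors. UTX, from the X-linked *Kdm6a*, and JMJD3, from *Kdm6b*, are demethylases that act on H3K27me3 and H3K27me2. UTX is also a subunit of the MLL3/4 complexes, which methylate lysine 4 of histone H3 at enhancers. *Uty*, on the Y chromosome, encodes the closest homologue of UTX and has very little demethylase activity.

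The promoter sequences are shown because the acetyltransferase pair differed at this place: *Ep300* carried H3K27ac peaks at its start in every list used and *Crebbp* in none, although the *Crebbp* sequence was the richer in CG dinucleotides. Each sequence runs 5′ to 3′ along the gene from 250 bases before to 50 bases after the start in the RefSeq annotation of GRCm38.p6, and CG dinucleotides are in capitals.
Crebbp: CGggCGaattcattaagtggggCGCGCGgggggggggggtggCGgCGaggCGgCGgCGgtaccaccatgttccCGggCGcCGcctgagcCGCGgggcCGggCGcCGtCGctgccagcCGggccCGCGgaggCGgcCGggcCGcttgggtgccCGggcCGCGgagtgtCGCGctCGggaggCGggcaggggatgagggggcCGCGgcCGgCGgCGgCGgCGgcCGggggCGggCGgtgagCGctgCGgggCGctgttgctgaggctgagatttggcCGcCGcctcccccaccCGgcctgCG
Ep300: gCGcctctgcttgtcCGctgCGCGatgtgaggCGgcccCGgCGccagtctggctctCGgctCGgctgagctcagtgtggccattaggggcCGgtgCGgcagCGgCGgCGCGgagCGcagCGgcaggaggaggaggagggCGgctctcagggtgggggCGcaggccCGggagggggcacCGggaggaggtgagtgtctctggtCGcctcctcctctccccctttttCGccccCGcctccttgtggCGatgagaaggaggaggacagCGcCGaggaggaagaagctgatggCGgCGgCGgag
Kdm6a: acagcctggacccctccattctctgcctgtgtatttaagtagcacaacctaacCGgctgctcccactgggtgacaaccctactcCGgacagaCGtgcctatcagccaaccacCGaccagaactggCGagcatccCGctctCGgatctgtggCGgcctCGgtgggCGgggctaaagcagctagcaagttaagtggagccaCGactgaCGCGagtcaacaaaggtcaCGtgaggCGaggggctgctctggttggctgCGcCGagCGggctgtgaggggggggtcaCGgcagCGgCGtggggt
The *Crebbp* window is chr16:4213355-4213654 on the minus strand, the *Ep300* window chr15:81585964-81586263 on the plus strand and the *Kdm6a* window chrX:18162325-18162624 on the plus strand. *Kdm6b* had no entry in the table of promoters, so 3 of the 4 genes matched. In the *Crebbp* window 82.0% of bases were G or C and 49 CG dinucleotides were counted, more than in 99.0% of the 32851 promoters of the same table. The *Ep300* window had 72.3% G and C with 30 CG dinucleotides, and the *Kdm6a* window 63.0% with 21. The median over all promoters was 52.7% G and C and 7 CG dinucleotides, so that all 3 sequences lay above it. GGGCGG, a GC box, occurred 2 times in the *Crebbp* window and 1 time each in the *Ep300* and *Kdm6a* windows, and 35.7% of all promoters held it on either strand. TGACG, the core of the site bound by CREB, the factor for which CBP is named, occurred 1 time in *Kdm6a* and in neither of the others, against 20.8% of all promoters. CCAAT was found in none of the 3 windows on either strand, against 37.4% of all promoters. Each window matched the mm9 genome 1 time. In mm9, the build of the peak lists, the RefSeq starts of *Crebbp* and *Kdm6a* coincide with the first start site of the GENCODE gene model, whereas that of *Ep300* lies 863 bp downstream of it, at the second start site.

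The RNA libraries held 3604123 to 5181553 reads on genes. Summed levels of 10 ESC markers, among them *Pou5f1* and *Nanog*, ranged from 14300 to 18100 normalized counts, and none of the 10 passed the test in any mutant line against WT. *Ezh2* was at 598 and 546 normalized counts in WT and at 0.824 to 1.78 in the *Ezh2* KO and *Ezh1/2* dKO libraries, and at 422 and 613 in *Ezh2* Y726D. *Ezh1* was at 227 and 377 in WT and at 14 to 24.1 in *Ezh1/2* dKO and *Ezh2* Y726D. Summed levels of 8 primitive endoderm markers were 450 and 537 in WT, 375 and 678 in *Ezh2* KO, 1340 and 1340 in *Ezh1/2* dKO, and 1020 and 1770 in *Ezh2* Y726D. *Gata4*, *Dab2* and *Col4a1* were the 3 of 6 tested endoderm markers called higher in *Ezh1/2* dKO, and *Col4a1* was the only 1 in *Ezh2* Y726D. Trophectoderm markers summed to 344 to 575 in WT and *Ezh2* KO and to 595 to 1240 in the other mutant lines, where *Krt8* and *Krt18* were called higher. Fibroblast markers summed to 3400 to 5390 over all libraries, almost all of it *Fn1* (3590 and 5380 in WT). *Col1a1*, *Col1a2*, *Lum* and *Dcn* were at or below 11.5 in every library, and *Thy1* was called higher in *Ezh1/2* dKO and *Ezh2* Y726D. Neural markers summed to 524 to 1330, mostly *Tubb3* (1240 and 464 in WT), with none called against WT. *Gata6* and *Sox17* were at 0 in both *Ezh2* KO libraries but near the floor in WT too, at 0 and 1.93 and at 0 and 2.89. *Sox17* was also at 0 in both *Ezh2* Y726D libraries. The fibroblast marker *Lum* was at 0 in all libraries but those of *Ezh1/2* dKO. The part of these other markers in the levels given below was not tested, and in bulk samples fewer cells of a type and less RNA per cell cannot be told apart.

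All 4 genes were expressed in every library, and none was called in any comparison of lines. A call required a limma p under 0.1 after Benjamini-Hochberg adjustment over 13872 genes, together with a difference of at least 2-fold, that is 1 on the log2 scale. By this rule 0.404% of the genes tested were called in *Ezh2* KO against WT, 4.02% in *Ezh1/2* dKO and 2.72% in *Ezh2* Y726D. Between mutant lines, 3.58% were called in *Ezh1/2* dKO against *Ezh2* KO, 1.68% in *Ezh2* Y726D against *Ezh1/2* dKO and 3.53% in *Ezh2* Y726D against *Ezh2* KO. With 0 of 4 called in each of the 6 comparisons, the counts do not stand out from these shares. The replicate SD of the 4 genes, pooled over lines, was 0.16 to 0.22 on the log2 scale, below the 0.27 of the median gene.

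Per kb of exon, *Kdm6a* was the highest of the 4 genes in every line and the order below it was *Crebbp* and then *Kdm6b* and *Ep300* in WT. In normalized counts per kb, the WT means were 122 for *Kdm6a*, 79.2 for *Crebbp*, 63.7 for *Kdm6b* and 59.6 for *Ep300*. The WT libraries of *Kdm6b* (70.8 and 56.7 per kb) and *Ep300* (48.1 and 71.2 per kb) overlapped, whereas *Crebbp* (73.8 and 84.8) lay above both and below *Kdm6a* (116 and 128). Exon lengths were those of the GENCODE models (7.51 kb for *Crebbp*, 11.2 kb for *Ep300*), whereas the authors counted reads on RefSeq genes. The order thus depends on annotated length: not per kb, the WT means were 670 for *Ep300* and 595 for *Crebbp*. In *Ezh2* KO *Ep300* stood above *Kdm6b*, at means of 56.3 and 47.3 per kb. In *Ezh1/2* dKO the same genes were at 43.4 and 48.2 per kb, with libraries that overlapped. *Kdm6a* and *Crebbp* came closest to each other in *Ezh2* Y726D, at 90.6 and 83.5 per kb, and overlapped only there.

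**Figure D1:**
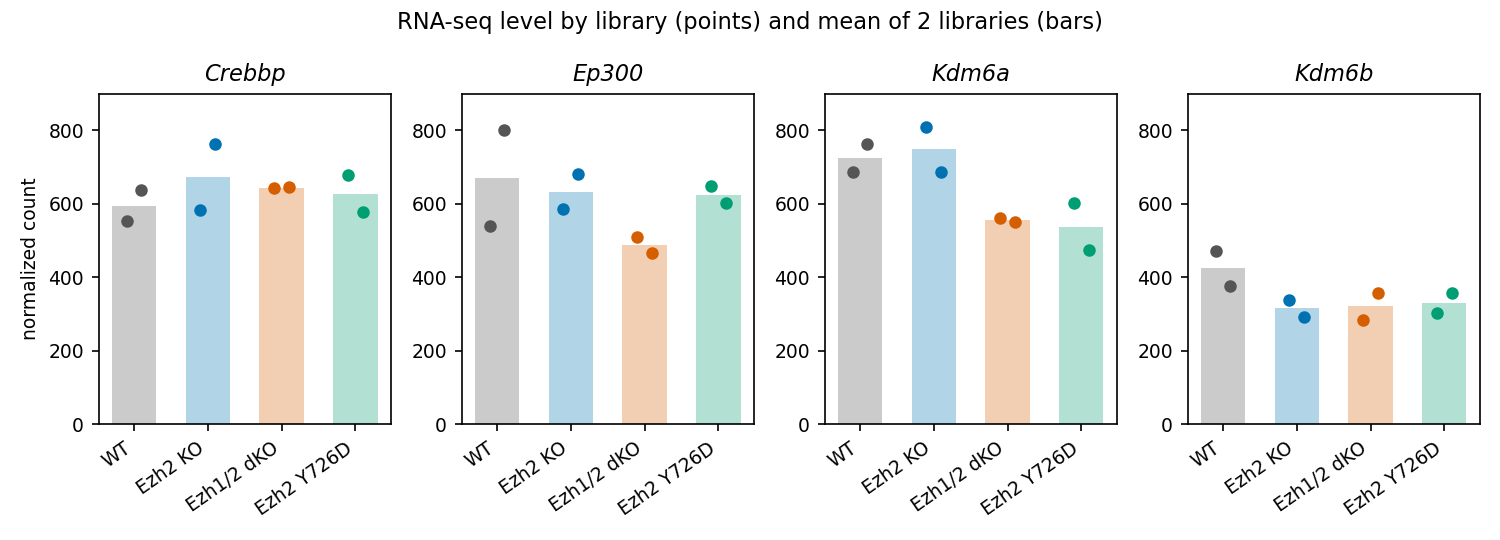
RNA-seq levels of *Crebbp*, *Ep300*, *Kdm6a* and *Kdm6b* in normalized counts (y axis, not per kb) in the 4 lines (x axis), with 1 point per library and bars at the mean of 2 libraries. *Kdm6b* was above 370 in both WT libraries and below 360 in all 6 mutant libraries, whereas the *Crebbp* points of all lines lay between 554 and 762.

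*Crebbp*, which encodes CBP, did not pass the test in any line. Its levels were 554 and 637 normalized counts in WT, 584 and 762 in *Ezh2* KO, 643 and 645 in *Ezh1/2* dKO and 677 and 577 in *Ezh2* Y726D. The libraries of *Ezh2* KO and *Ezh2* Y726D overlapped those of WT, and both *Ezh1/2* dKO libraries lay just above the higher WT library. Against WT the log2 fold change was 0.17 (95% CI -0.21 to 0.55, limma adjusted p = 0.822) in *Ezh2* KO. In *Ezh1/2* dKO it was 0.12 (95% CI -0.26 to 0.49, limma adjusted p = 0.747), and in *Ezh2* Y726D 0.07 (95% CI -0.30 to 0.45, limma adjusted p = 0.908). The highest of these upper limits corresponds to a 1.46-fold higher level. Between mutant lines the differences were -0.05, -0.04 and -0.09 on the log2 scale, in libraries that overlapped in each case.

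*Ep300*, which encodes p300, had its lowest levels in *Ezh1/2* dKO. It was measured at 540 and 800 normalized counts in WT, 586 and 681 in *Ezh2* KO, 509 and 467 in *Ezh1/2* dKO and 649 and 602 in *Ezh2* Y726D. Both *Ezh1/2* dKO libraries were below every other library, while the WT libraries spanned the range of the *Ezh2* KO and *Ezh2* Y726D libraries. The *Ezh1/2* dKO difference from WT was -0.43 on the log2 scale (SE 0.19, 95% CI -0.86 to 0.00), with an unadjusted limma p of 0.0509 and an adjusted p of 0.27. *Ezh2* KO differed from WT by -0.06 (95% CI -0.49 to 0.37) and *Ezh2* Y726D by -0.07 (95% CI -0.51 to 0.36), with limma adjusted p of 0.954 and 0.922. *Ezh1/2* dKO against *Ezh2* KO gave -0.37 (limma adjusted p = 0.474), and *Ezh2* Y726D against *Ezh1/2* dKO gave 0.36 (limma adjusted p = 0.484). The difference in *Ezh1/2* dKO leaned on the higher WT library: without WT replicate 2 it was -0.15 and without WT replicate 1 it was -0.71 (limma adjusted p = 0.0751, under 2-fold).

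*Kdm6a*, which encodes UTX, was lower in *Ezh1/2* dKO and *Ezh2* Y726D than in WT and *Ezh2* KO, by a margin that did not pass the adjusted test. Its levels were 687 and 762 normalized counts in WT, 810 and 687 in *Ezh2* KO, 561 and 550 in *Ezh1/2* dKO and 602 and 474 in *Ezh2* Y726D. All 4 libraries of *Ezh1/2* dKO and *Ezh2* Y726D were at or below 602, and all 4 libraries of WT and *Ezh2* KO were at or above 687. Over all genes tested, both libraries lay below both *Ezh2* KO libraries for 26.9% in *Ezh1/2* dKO and for 22.1% in *Ezh2* Y726D. The log2 fold change against WT was -0.38 in *Ezh1/2* dKO (SE 0.16, 95% CI -0.74 to -0.02), with an unadjusted limma p of 0.0416 and an adjusted p of 0.25. In *Ezh2* Y726D it was -0.44 (SE 0.16, 95% CI -0.80 to -0.07), with an unadjusted limma p of 0.0233 and an adjusted p of 0.25. Without *Ezh2* Y726D replicate 2, the lower of its libraries, this difference was -0.26 (limma adjusted p = 0.617). *Ezh2* KO differed from WT by 0.04 (95% CI -0.32 to 0.41, limma adjusted p = 0.957). Against *Ezh2* KO, *Kdm6a* differed by -0.43 in *Ezh1/2* dKO (limma adjusted p = 0.274) and by -0.48 in *Ezh2* Y726D (limma adjusted p = 0.18, and -0.31 without *Ezh2* Y726D replicate 2), and those mutant lines differed from each other by -0.06. Over the 474 tested genes of the X chromosome, the median log2 fold change against WT was -0.04 in *Ezh2* Y726D, -0.08 in *Ezh2* KO and 0.02 in *Ezh1/2* dKO. Loss of *Ezh1* is shared by *Ezh2* Y726D and *Ezh1/2* dKO. According to the study, both lines also lack all H3K27 methylation, whereas *Ezh2* KO keeps part of it. No line lacking *Ezh1* alone had RNA-seq. Which of these losses goes with the lower *Kdm6a* levels was not tested, and genotype and clone cannot be told apart.

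*Kdm6b*, which encodes JMJD3, was below WT in all 3 mutant lines. It was at 471 and 377 normalized counts in WT, 337 and 293 in *Ezh2* KO, 285 and 357 in *Ezh1/2* dKO and 303 and 357 in *Ezh2* Y726D. All 6 mutant libraries lay below the lower WT library, and the mutant lines overlapped one another. The log2 fold change against WT was -0.42 in *Ezh2* KO (SE 0.19, 95% CI -0.86 to 0.01), with a limma adjusted p of 0.579. It was -0.40 in *Ezh1/2* dKO (95% CI -0.83 to 0.03, limma adjusted p = 0.3) and -0.36 in *Ezh2* Y726D (95% CI -0.79 to 0.08, limma adjusted p = 0.464). The 3 comparisons share the WT libraries. Without WT replicate 1, the higher of them, the *Ezh2* KO difference was -0.26, that of *Ezh2* Y726D -0.20 and that of *Ezh1/2* dKO -0.24. Leaving out *Ezh1/2* dKO replicate 1 instead also gave -0.24 for *Ezh1/2* dKO. Between the mutant lines the differences were 0.02, 0.04 and 0.07 on the log2 scale.

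Both libraries of the mutant line lay below both WT libraries for 1 of the 4 genes in *Ezh2* KO (*Kdm6b*), for 3 in *Ezh1/2* dKO (all but *Crebbp*) and for 2 in *Ezh2* Y726D (*Kdm6a* and *Kdm6b*). Over all genes tested this held for 17.6%, 24.5% and 18.1%. Both *Ezh1/2* dKO libraries lay above both WT libraries for 28% of genes, *Crebbp* among them. They lay below both *Ezh2* KO libraries for 26.9%, *Ep300* and *Kdm6a* among them. The share of genes that split over more than 2 lines at once was not counted. The median log2 fold change on chromosomes 11, 15 and 16, which carry *Kdm6b*, *Ep300* and *Crebbp*, was between -0.03 and 0.02 against WT in the 3 mutant lines.

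**Figure D2:**
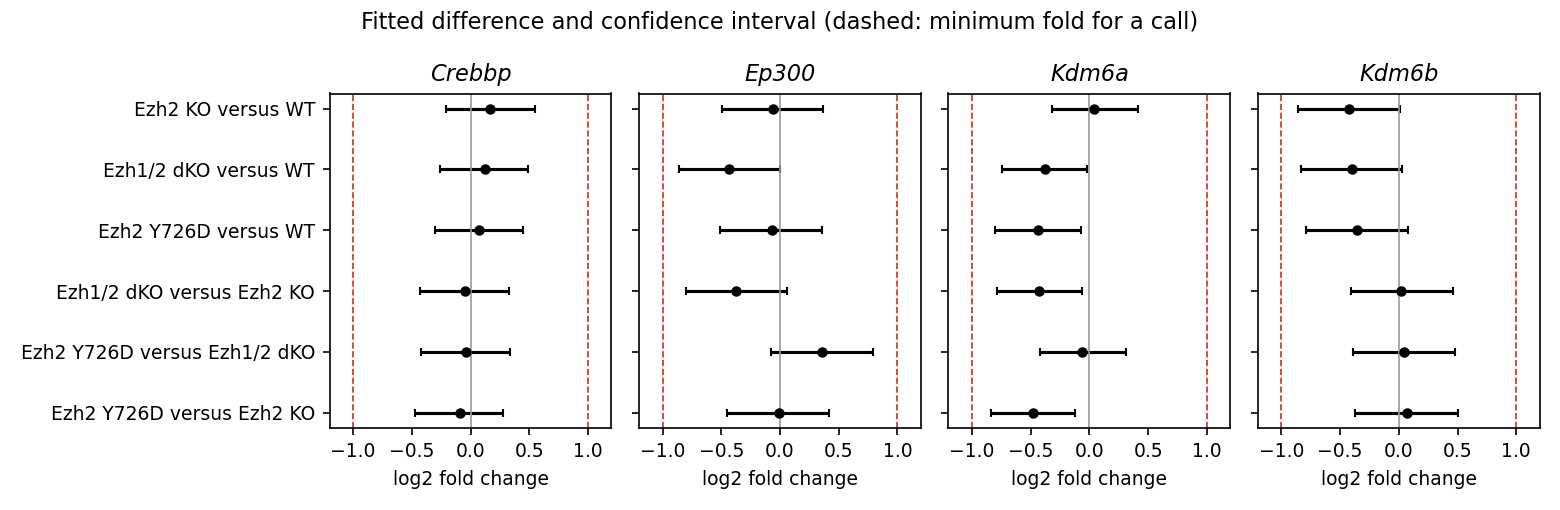
Fitted log2 fold changes (x axis) of the 4 genes in the 6 comparisons of lines (y axis), as points with 95% confidence intervals from limma over all 8 libraries. Dashed lines mark the log2 fold change of 1 required for a call, and every interval lies within them.

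*Uty* was undetected in *Ezh2* Y726D. It was at 360 and 477 normalized counts in WT, 470 and 400 in *Ezh2* KO and 284 and 305 in *Ezh1/2* dKO, and at 0 in both *Ezh2* Y726D libraries. With 0 reads in *Ezh2* Y726D and a floor of 3 reads over the line, *Uty* was at least 287-fold lower than in WT (limma adjusted p = 4.19e-07). Of the Y-linked genes listed, all 5 tested (*Uty*, *Ddx3y*, *Eif2s3y*, *Uba1y*, *Zfy1*) were called lower in *Ezh2* Y726D against WT, and *Ddx3y* had the highest level of them. Summed Y-linked levels were 1800 to 2370 normalized counts in the libraries of the other lines and 23.2 and 23.5 in *Ezh2* Y726D. The ATAC-seq lists held 111 regions on the Y chromosome in *Ezh2* Y726D, against 129 in WT, 156 in *Ezh2* KO and 131 in *Ezh1/2* dKO. These lists use a permissive p and hold 752009 regions over the genome in *Ezh2* Y726D and 769945 in WT. Such counts can include background, so they do not show whether the Y chromosome was present, which was not tested. In normalized counts per kb of exon, *Uty* was at a mean of 75.1 in WT, where *Kdm6a* was at 122, and at 0 in *Ezh2* Y726D, where *Kdm6a* was at 90.6. Reads were counted without regard to strand by HTSeq-count in its intersection-nonempty mode. How reads that map equally well to both homologues were treated is not given in the sources used here. In *Ezh2* Y726D *Uty* had 0 reads where *Kdm6a* had 1099, so no *Kdm6a* reads were counted for *Uty* in that line. Whether *Uty* reads were counted for *Kdm6a* in the other lines was not tested.

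**Figure D3:**
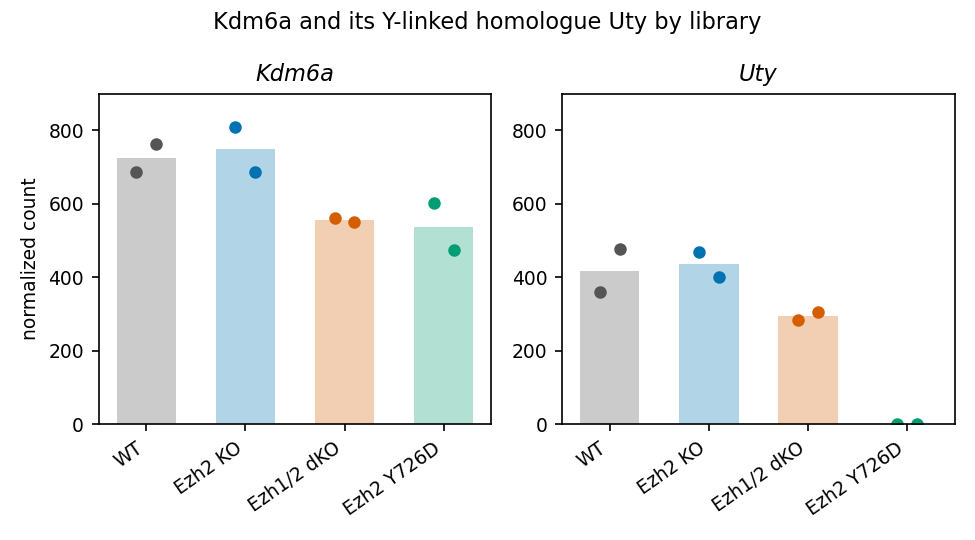
*Kdm6a* and its Y-linked homologue *Uty* in normalized counts (y axis, not per kb) by line (x axis), with 1 point per library and bars at the mean of 2 libraries. *Uty* was at 0 in both *Ezh2* Y726D libraries, and *Kdm6a* was at or below 602 in the *Ezh1/2* dKO and *Ezh2* Y726D libraries.

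The pattern over the 8 libraries was described by the 3 tested genes with the highest Pearson r of log2 levels to each gene, with lines and library depth shared by all points and no test made. For *Crebbp* these were *Dhtkd1* (r = 0.953), *Ctla2a* (0.95) and *Uevld* (0.944). *Ep300* was closest to *Ubn2* (r = 0.96), *Eps15l1* (0.959) and *Snrnp200* (0.958). *Kdm6a* was closest to *Npc2* and *Il6st* (r = 0.978 for both) and *Wbp2* (0.973), and *Kdm6b* to *Rtf1* (0.992), *Bpnt1* (0.951) and *Ywhah* (0.947). None of the 4 genes was among the 3 closest to another of them.

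Other enzymes of the same chemistry, and the related genes that follow, were read as lists. Between 0.404% and 4.02% of all genes tested were called against WT, depending on the line. At such shares a short list holds few calls, so an absence of calls does not set it apart. Of 20 further acetyltransferases none was called against WT, and their median log2 fold change was -0.22 in *Ezh1/2* dKO, where the median of all genes was 0.01. In *Ezh2* KO it was -0.08 and in *Ezh2* Y726D -0.06, with -0.01 over all genes in both. *Ncoa3*, a nuclear receptor coactivator, had the highest level of this list, at 1860 and 1720 normalized counts in WT. *Esco2*, which acetylates cohesin, was at 1120 and 982 in WT and 686 and 657 in *Ezh1/2* dKO, a log2 fold change of -0.65 (limma adjusted p = 0.0485) that stayed under 2-fold. *Ncoa2* had the widest difference of the list in *Ezh2* Y726D, -0.66 (limma adjusted p = 0.144). Of 23 further demethylases tested only *Uty* was called against WT, and the list medians in the order *Ezh2* KO, *Ezh1/2* dKO, *Ezh2* Y726D, kept for the lists that follow, were -0.14, -0.17 and -0.16. *Kdm3a*, an H3K9 demethylase, was the highest of them in level, at 1800 and 1900 in WT. *Kdm4d* was near the limit of detection, at 5.34 and 7.7 in WT, 0 and 0.968 in *Ezh2* KO and 14 and 22.2 in *Ezh1/2* dKO.

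Deacetylases, which remove the acetyl group, had 0 of 18 called against WT, with medians of 0.11, -0.02 and -0.03. *Hdac1* had the highest level (1790 and 1490 in WT), and the widest differences were those of *Sirt7* in *Ezh2* KO (-1.16, limma adjusted p = 0.266), *Hdac9* in *Ezh1/2* dKO (1.44, limma adjusted p = 0.518) and *Hdac7* in *Ezh2* Y726D (1.37, limma adjusted p = 0.213). The 9 listed subunits of the MLL3/4 complexes, the partners of UTX, had none called, with medians of -0.13, -0.22 and -0.10. *Ash2l* was the highest in level, and *Kmt2c*, the catalytic subunit of MLL3, had the widest difference in *Ezh2* KO (0.44, limma adjusted p = 0.622) and *Ezh2* Y726D (0.41, limma adjusted p = 0.472). *Rbbp5* had it in *Ezh1/2* dKO (-0.40, limma adjusted p = 0.146).

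Among 22 bromodomain genes, whose products mostly bind acetylated histones, *Brdt* and *Brpf3* were called. *Brdt*, the germ cell member of the BET family, was at 0 and 0.963 normalized counts in WT, where the second value is 1 read. It was at 17.8 and 15.5 in *Ezh2* KO, 51.9 and 67.5 in *Ezh1/2* dKO and 8.92 and 15.7 in *Ezh2* Y726D, called higher in each (limma adjusted p = 0.0403, 0.00585 and 0.0324). *Brpf3*, a scaffold of acetyltransferase complexes, fell in *Ezh2* Y726D to 120 and 153 from 347 and 305 in WT, a difference of -1.25 on the log2 scale (SE 0.26, adjusted p = 0.0529 by limma). The medians of this list were -0.01, -0.06 and -0.05, and *Baz2a* was the highest in level. Of 17 tested partners of CBP and p300 none was called against WT, with medians of -0.10, -0.18 and 0.03. *Trp53* was the highest of them in level, and *Cited1* varied most, with 64.0 and 20.2 in WT, 5.23 and 27.1 in *Ezh2* KO, 94.0 and 149 in *Ezh1/2* dKO and 51.7 and 163 in *Ezh2* Y726D. Of 12 PRC2 genes only the targeted *Ezh1* and *Ezh2* were called against WT, and *Jarid2* was the highest in level.

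Peaks were then read at the promoters, from 5 kb before to 5 kb after every GENCODE start site of a gene in mm9. The gene models are *Crebbp* (ENSMUSG00000022521.7), chr16:4084048-4213404 on the minus strand, *Ep300* (ENSMUSG00000055024.5), chr15:81415781-81482507 on the plus strand, *Kdm6a* (ENSMUSG00000037369.9), chrX:17739701-17857062 on the plus strand, and *Kdm6b* (ENSMUSG00000018476.7), chr11:69212010-69227177 on the minus strand. No other protein-coding gene starts within these windows. Counts are set beside the percent of 22359 protein-coding genes with such a peak, the reads behind each list are unknown and 1 library was used per line and target, so no test was made.

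SUZ12 was listed at none of the 4 promoters in any of the 5 lines. The background in WT was 14.2% of genes. It was 10.1% in *Ezh2* Y726D, 8.31% in *Ezh2* R685C, 4.16% in *Ezh2* KO and 1.01% in *Ezh1/2* dKO. The nearest WT SUZ12 peak lay 45.2 kb from *Kdm6b*, 108 kb from *Ep300*, 206 kb from *Crebbp* and 1900 kb from *Kdm6a*. Peaks of HA-tagged EZH1 were at 0 of the 4 promoters too, against 10.6% of genes in *Ezh1/2* dKO cells expressing HA-EZH1 and 2.59% in *Ezh1/2* dKO cells without it.

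H3K27me3 was listed at 1 of the 4 promoters in WT and at none in the mutant lines. The background was 18.4% of genes in WT, 24.0% in *Ezh2* R685C, 14.5% in *Ezh2* KO, 1.12% in *Ezh2* Y726D and 0.0939% in *Ezh1/2* dKO. The WT peak lay at chr16:4215047-4215359, 313 bp wide and 1643 bp upstream of the *Crebbp* start. Its -log10 p of 10.8 was just over the minimum of 10, its enrichment was 5.58-fold, and it ranked 3855 of the 4120 genes with a peak. It was lost at a p of at most 1e-20 and within 1 kb of a start site.

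H3K27ac peaks differed among the 4 genes. Lists of 4 mutant lines were used, and WT H3K27ac was not analysed here. *Ep300* and *Kdm6a* had a peak in every one of them, *Kdm6b* in all but *Ezh1/2* dKO, and *Crebbp* in none. That made 3 of 4 genes in *Ezh2* KO, 2 in *Ezh1/2* dKO, 3 in *Ezh2* Y726D and 3 in *Ezh2* R685C, against 36.9%, 27.7%, 46.0% and 45.0% of all genes.

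At *Ep300* a peak began 30 bp after the first start site in *Ezh2* KO, 33 bp after it in *Ezh2* Y726D and 59 bp after it in *Ezh1/2* dKO, and at -14 bp in *Ezh2* R685C. In each line a peak covered the second start site, that of the sequence printed above. The strongest had a -log10 p of 31.7 in *Ezh2* KO, 21.0 in *Ezh1/2* dKO, 38.0 in *Ezh2* Y726D and 45.5 in *Ezh2* R685C. Their enrichment over background was 9.31-fold, 8.15-fold, 12.1-fold and 13.6-fold in the same order. The bases covered were 1771, 1088, 1934 and 3170, fewest in *Ezh1/2* dKO, whose list also held peaks at the fewest promoters. Among genes with a peak, the strongest *Ep300* peak stood at percentile 79.3, 69.6, 83.9 and 75.6 of -log10 p.

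*Kdm6a* peaks were joined into 1 peak across the start site in *Ezh2* R685C and lay on both sides of it in the other 3 lines. In the same order as for *Ep300*, the strongest had a -log10 p of 18.0, 16.0, 19.7 and 35.6, with percentiles of 41.5, 47.2, 46.0 and 60.7 among genes with a peak. The covered bases were 1704, 1126, 2131 and 3320. These were middling peaks for a promoter with H3K27ac, on a gene whose RNA level per kb was the highest of the 4.

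*Kdm6b* was flanked rather than covered at its start. It had 3 peaks in *Ezh2* KO, 0 in *Ezh1/2* dKO, 7 in *Ezh2* Y726D and 6 in *Ezh2* R685C, none on the start site. The strongest lay 267 bp, 1362 bp and 3268 bp from the start in the lines that had any, with a -log10 p of 16.0, 28.8 and 31.9. In *Ezh1/2* dKO the nearest peak was 17.3 kb away. Its RNA was at 285 and 357 normalized counts in *Ezh1/2* dKO, where no peak was listed, and at 337 and 293 in *Ezh2* KO, where 3 were.

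*Crebbp* had no H3K27ac peak within 5 kb in any list, and the nearest lay 62.9 kb, 135 kb, 54.5 kb and 62.4 kb away in the same order of lines. Of the 2104 genes with a mean normalized count at least as high as *Crebbp* (not per kb), 40 (1.9%) also lacked a peak in all 4 lists and 73.1% had one in all 4. By list, 91.0%, 75.0%, 91.9% and 97.3% of them had a peak. Among 20 further acetyltransferases *Ncoa1* was the only other without one in any list, and 18, 14, 18 and 19 of the 20 had a peak in the 4 lines in that order. For the other lists the counts were 17, 15, 18 and 19 of 23 demethylases, 11, 4, 12 and 13 of 17 deacetylases and 8, 7, 8 and 9 of 9 MLL3/4 subunits. SUZ12 and H3K27me3 were listed at 0 of the 20 acetyltransferases in every line.

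**Figure D4:**
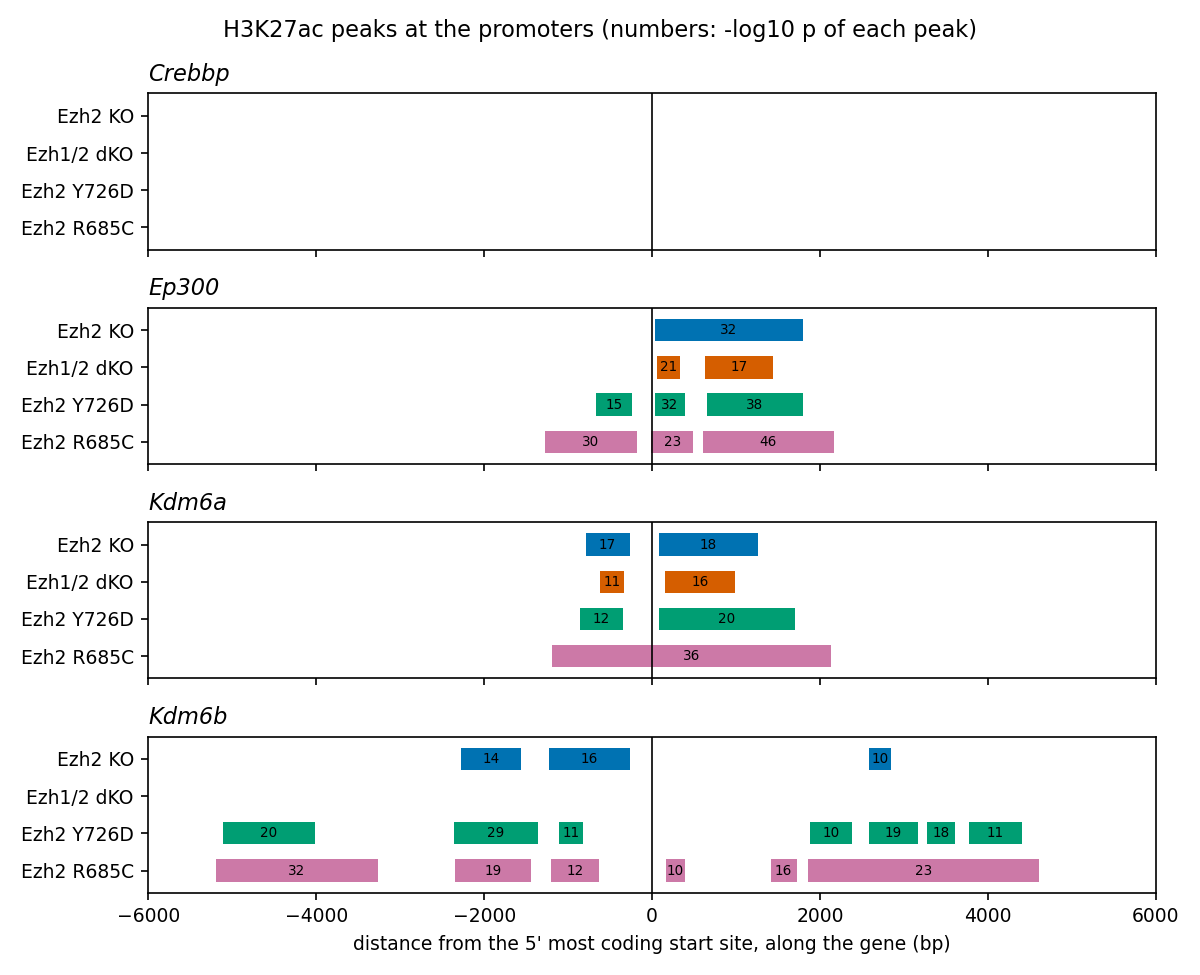
H3K27ac peaks around the 4 genes in 4 mutant lines, with 1 library per line. The x axis is the distance in bp from the first start site along the gene, each bar is a peak and its number is the -log10 p. *Crebbp* has no bar in any line and *Kdm6b* has none in *Ezh1/2* dKO.

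Accessible regions from ATAC-seq, a measure of open chromatin, were listed at all 4 promoters in all 4 lines. Nearly every gene had such a region at the permissive p of 0.1 of these lists: 95.4% in *Ezh2* KO, 95.1% in WT, 95.2% in *Ezh1/2* dKO and 95.0% in *Ezh2* Y726D. *Crebbp*, without H3K27ac peaks, had its strongest region at a -log10 p of 3.1 in WT, on the start site, the strongest of the 4 genes in WT. In the mutant lines its strongest regions had 2.31, 1.75 and 2.18 and lay 1990, 3345 and 2335 bp from a start site. Those on its start site had 1.97, 1.63 and 1.62. The strongest regions of *Ep300* had 2.37, 1.99, 1.69 and 1.93, those of *Kdm6a* 1.87, 1.91, 2.21 and 2.32 and those of *Kdm6b* 1.74, 1.69, 2.14 and 1.94. A region lay on the start site of *Crebbp*, *Ep300* and *Kdm6a* in all lines and on that of *Kdm6b* in none.

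H3K27me1 and H3K27me2 regions, also listed at a p of up to 0.1, were read over the gene bodies, where WT had the widest H3K27me1 coverage of all 4 genes. In WT, H3K27me1 regions covered 94.3% of the *Ep300* body, 84.5% of *Crebbp*, 61.6% of *Kdm6a* and 13% of *Kdm6b*. The median gene of their chromosomes was covered to 13.1%, 19.1%, 0% and 2.83%, so the WT values stood at percentiles 97.7, 86.9, 93.0 and 59.2. In *Ezh2* KO the coverage was 0% for all 4 genes, where the chromosome medians were 8.84% for *Ep300*, 1.39% for *Crebbp* and 0% for *Kdm6a* and *Kdm6b*. In *Ezh1/2* dKO it was 7.05% for *Crebbp* and 5.03% for *Ep300*, below the chromosome medians of 10.5% and 12.8%, with 0% for *Kdm6a* and 1.32% for *Kdm6b*. In *Ezh2* Y726D it was 0% for *Kdm6a* and 4.32% for *Kdm6b*, and that list names no region on chromosomes 15 and 16 among others, so that *Ep300* and *Crebbp* could not be read there. With regions at a p of at most 0.01, WT coverage remained at 92.9% for *Ep300* and 65.6% for *Crebbp* but was 1.52% for *Kdm6a* and 2.04% for *Kdm6b*. At that p no coverage was left in the mutant lines. The study's western blots showed H3K27me1 lost in *Ezh1/2* dKO and *Ezh2* Y726D but at normal bulk levels in *Ezh2* KO. By the study's ChIP-seq, *Ezh2* KO lost the mark at highly transcribed genes and accumulated it within poorly transcribed ones.

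H3K27me2 was highest on *Kdm6b*, with 34.7% of its body covered in WT (percentile 91.8, chromosome median 1.82%), against 9.52% for *Crebbp* and 0% for *Ep300* and *Kdm6a*. None of the 4 genes had any H3K27me2 coverage in *Ezh2* KO, where the chromosome median was 4.57% for *Ep300* and 0% for the others. In *Ezh1/2* dKO and *Ezh2* Y726D, *Crebbp* was covered to 12.6% and 13.6%, *Ep300* to 4.2% and 3.83%, *Kdm6a* to 3.27% and 1.15% and *Kdm6b* to 0% and 6.42%. The study's western blots showed H3K27me2 lost in both lines. Their lists nonetheless held 478485 and 475687 regions at the permissive p, against 270131 in WT. Coverage above that of WT is therefore not shown to be a gain of the mark. Regions with a p of at most 0.01 left 1.45% of *Kdm6b* in WT and 0.165% of *Crebbp* in *Ezh1/2* dKO and nothing else.

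At the promoters, H3K27me1 was listed for 3 of 4 genes in WT (all but *Kdm6a*), for *Crebbp* in *Ezh2* KO, for *Crebbp* and *Ep300* in *Ezh1/2* dKO and for *Kdm6b*, as 1 of the 2 genes that could be read, in *Ezh2* Y726D. The background was 63.4%, 60.9%, 70.4% and 76.8% of the genes on listed chromosomes. H3K27me2 was listed for the same 3 genes in WT, for *Crebbp* in *Ezh2* KO, for *Crebbp* and *Ep300* in *Ezh1/2* dKO and for *Ep300* and *Kdm6b* in *Ezh2* Y726D, against 72.1%, 50.7%, 82.1% and 83.3% of genes. *Kdm6a* thus had no promoter region of either mark in any line.

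**Figure D5:**
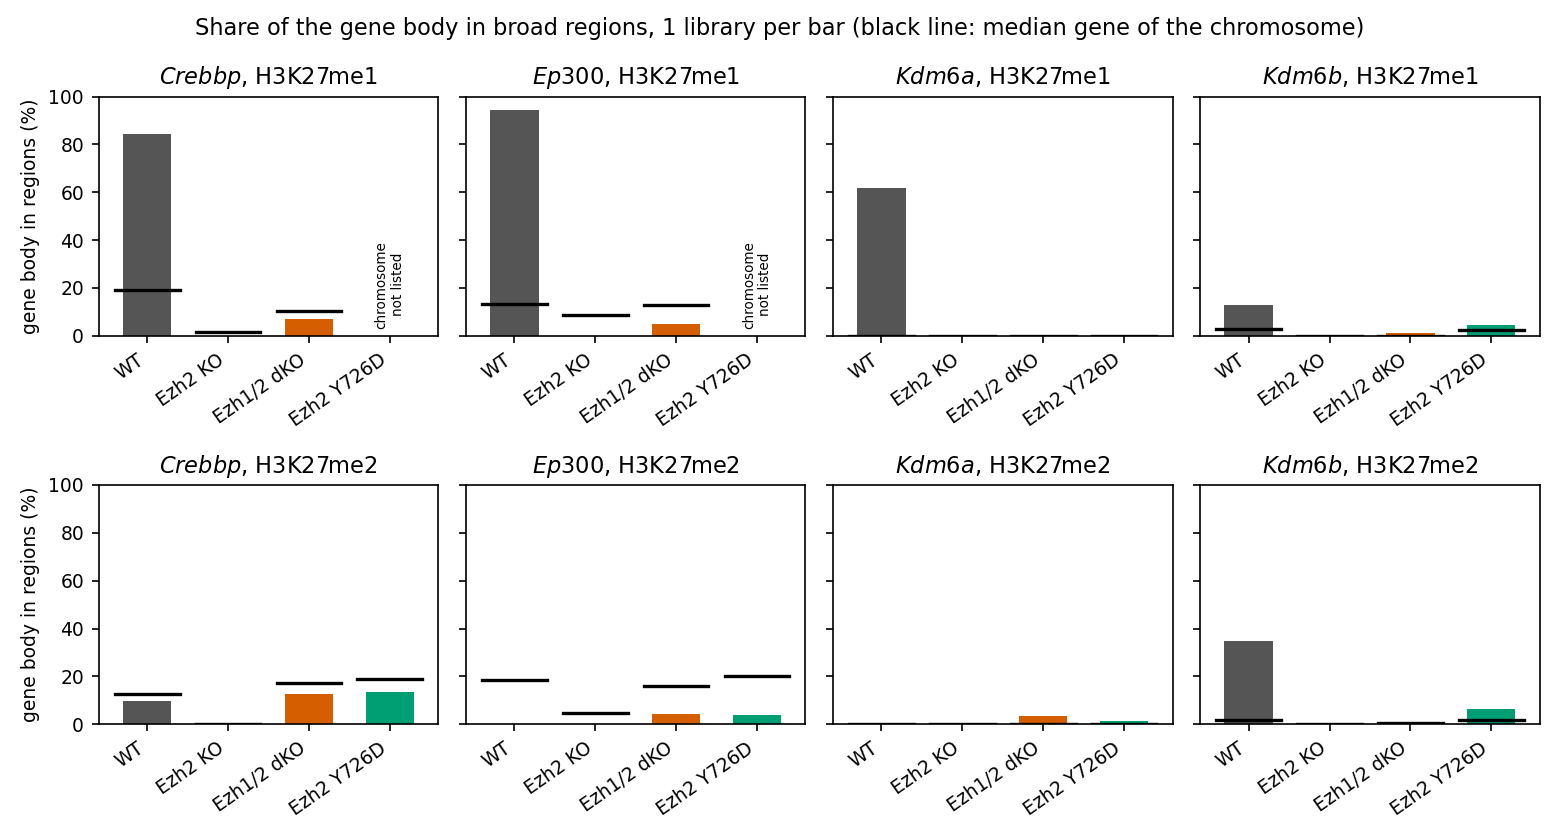
Percent of the gene body (y axis) of each gene inside H3K27me1 (upper row) and H3K27me2 (lower row) regions in 4 lines (x axis), with 1 library per bar and black lines at the median gene of the same chromosome. H3K27me1 in WT reaches 94.3% of *Ep300* and 84.5% of *Crebbp*, and *Ezh2* KO has no bar for any gene.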

How the data were processed

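ChIP-seq and ATAC-seq reads were mapped by the authors to mm9 using Bowtie, duplicates were dropped using Picard, and MACS2 made 1 list per library. The deposited lists give each peak or region a -log10 p and an enrichment ratio (fold over background), and the HA lists positions alone. Narrow lists (SUZ12, H3K27me3, H3K27ac) hold a p of at most 1e-10, and broad lists (H3K27me1, H3K27me2, ATAC-seq) a p of at most 0.1, with broad calling settings not given in the sources used here. Samples whose titles give Y726D alone were assigned to the *Ezh2* Y726D line.

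RNA-seq reads were mapped by the authors using TopHat, assigned to genes by HTSeq-count and scaled by DESeq2. The deposited values are a signal, the count of a gene over the size factor of its library. They came out as whole multiples of 1 read in 100% of cases, within a tolerance of 0.001. The deposited comparisons hold the authors' own fold changes and p-values and were not used.

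Log2 of the normalized count plus 1 was fitted with limma 3.58.1 (trend, R 4.3.3) over all 8 libraries for genes with a mean of at least 5. Calls needed an adjusted p under 0.1 and a log2 fold change of 1 or more in size. As alternatives, count models were fitted to recovered reads in edgeR 4.0.16 and in DESeq2 1.42.0. The fit was tested on simulated data for *Ezh1/2* dKO against WT over 13872 genes, and it found 194 of 200 genes changed 4-fold, with 25 false calls. Only 4-fold changes were simulated, in genes above a higher minimum mean and with the same dispersion for all genes. The power to detect smaller differences, such as those of the 4 genes, was not tested. Replicate numbers were not used as pairs, since deviations of equal numbers correlated at -0.41 to 0.29. Peaks were placed with Python 3.11.15 on GENCODE start sites of mm9, with a minimum overlap of 1 bp, and figures drawn with matplotlib 3.10.9. Named from each list were the genes called against WT, the gene with the largest difference and the gene with the highest level. Members, lists and tests were chosen with earlier results of these data known.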

Additional observations from a re-analysis of the deposited data

Results flagged for a closer look

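*Uty*, the Y-linked homologue of *Kdm6a*, differed between mutant lines by their own contrasts. With 0 reads in *Ezh2* Y726D and a floor of 3 reads over the line, it was at least 197-fold lower than in *Ezh1/2* dKO (limma adjusted p = 6.68e-07) and at least 291-fold lower than in *Ezh2* KO (limma adjusted p = 4.81e-07), lower in 2 of 2 libraries each time. *Ezh1/2* dKO and *Ezh2* KO differed from each other by -0.56 on the log2 scale (limma adjusted p = 0.42). The cause was not tested.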

How the results depend on the processing

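None of the 4 genes was called under any of 456 alternative values, and 433 kept their direction. The widest value was -0.71 (*Ep300* in *Ezh1/2* dKO against WT), so no call was possible wherever the 2-fold minimum was kept. Under the rule with no minimum fold, none had a limma adjusted p under 0.05. With quantile normalization *Crebbp* in *Ezh1/2* dKO against *Ezh2* KO turned to 0.055 and *Ep300* in *Ezh2* Y726D against *Ezh2* KO to 0.0015 (log2). Leaving out 1 library turned 21 of 192 values. *Crebbp* then ranged from -0.023 to 0.36 in *Ezh2* KO and -0.041 to 0.19 in *Ezh2* Y726D against WT, -0.24 to 0.14 in *Ezh1/2* dKO against *Ezh2* KO, and in *Ezh2* Y726D -0.16 to 0.072 against *Ezh1/2* dKO and -0.28 to 0.097 against *Ezh2* KO. *Ep300* ranged from -0.34 to 0.22 in *Ezh2* KO and -0.36 to 0.21 in *Ezh2* Y726D against WT, and -0.12 to 0.094 in *Ezh2* Y726D against *Ezh2* KO. *Kdm6a* ranged from -0.074 to 0.16 in *Ezh2* KO against WT and -0.23 to 0.12 in *Ezh2* Y726D against *Ezh1/2* dKO. *Kdm6b* ranged from -0.14 to 0.18 in *Ezh1/2* dKO against *Ezh2* KO, and in *Ezh2* Y726D -0.12 to 0.21 against *Ezh1/2* dKO and -0.051 to 0.18 against *Ezh2* KO. *Uty* ranged from -0.14 to 0.27 in *Ezh2* KO against WT. The differences of *Kdm6a* and *Ep300* from WT in *Ezh1/2* dKO, of *Kdm6a* in *Ezh2* Y726D and of *Kdm6b* in all 3 lines kept their sign. Besides *Ep300* in *Ezh1/2* dKO against WT without WT replicate 1, an adjusted p under 0.1 was reached, under 2-fold each time, by *Kdm6a* (0.0524) and *Ep300* (0.0993) in *Ezh1/2* dKO against *Ezh2* KO with limma on those 4 libraries alone, and by *Kdm6a* in *Ezh2* Y726D against *Ezh2* KO without *Ezh2* Y726D replicate 1 (0.0751). The cause was not tested.

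The number of genes called moved more. *Ezh2* KO against WT gave 56, and 35 without a filter, 34 with quantile normalization, 30 with edgeR, 149 with DESeq2, 28 with the 4 libraries alone and 31 at an adjusted p under 0.05 with no minimum fold. That last rule gave 315 in *Ezh1/2* dKO and 223 in *Ezh2* Y726D against WT, 305 in *Ezh1/2* dKO against *Ezh2* KO, and 110 and 289 in *Ezh2* Y726D against *Ezh1/2* dKO and *Ezh2* KO. The 4 libraries alone gave 32 in *Ezh2* Y726D against WT, 1181 in *Ezh1/2* dKO against *Ezh2* KO, and 150 and 228 in *Ezh2* Y726D against *Ezh1/2* dKO and *Ezh2* KO. In *Ezh1/2* dKO against *Ezh2* KO a minimum mean of 20 gave 258 and quantile normalization 176. Without 1 library the calls ranged from 6 (without *Ezh2* KO replicate 2) to 135 in *Ezh2* KO, 3 (without *Ezh1/2* dKO replicate 2) to 733 in *Ezh1/2* dKO and 156 to 546 in *Ezh2* Y726D against WT, from 53 to 665 in *Ezh1/2* dKO against *Ezh2* KO, and in *Ezh2* Y726D from 14 to 514 against *Ezh1/2* dKO and 98 to 962 against *Ezh2* KO. Genes of the lists were counted too, here with the cell type markers. The main fit called *Brdt* and *Ezh2* in *Ezh2* KO against WT. In *Ezh1/2* dKO against *Ezh2* KO it called *Kdm4d*, *Smarca2*, *Cited1*, *Ezh1*, *Dab2*, *Col4a1*, *Thy1* and *Nes*. Fewer were called with edgeR or the 4 libraries alone in *Ezh2* KO (1) and with the 4 libraries alone in *Ezh2* Y726D (6). Fewer list genes, 4, 4 and 5, were also called in *Ezh1/2* dKO against *Ezh2* KO with a minimum mean of 20, quantile normalization and the 0.05 rule. Without 1 library they ranged from 1 to 2 in *Ezh2* KO, 2 to 10 in *Ezh1/2* dKO, and 2 to 10 in *Ezh1/2* dKO against *Ezh2* KO.

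With a replicate block, *Ezh2* KO against WT gave 34 calls. The replicate numbers do not pair the libraries, and with this block none of the 4 genes was called.

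Of 138 counts of promoters with a peak, 32 changed, 25 of them by more than 1.5 times. No promoter kept H3K27me1, H3K27me2 or ATAC-seq regions at a p of at most 1e-05 (0 of 4 in every line). At a p of at most 1e-20, H3K27ac was left at 1 promoter, that of *Ep300*, in *Ezh2* KO and *Ezh1/2* dKO, and H3K27me3 in WT at 0. Within 1 kb of a start site H3K27me3 in WT was at 0, H3K27me1 at 0 in the mutant lines, and H3K27me2 at 1 in WT and *Ezh1/2* dKO and 0 in *Ezh2* KO and *Ezh2* Y726D. H3K27me1 in *Ezh1/2* dKO was at 1 within 2.5 kb or with an overlap of 200 bp. Limiting gene body regions to a p of at most 0.01, chosen after seeing the data, left H3K27me1 in WT at 92.9%, 65.6%, 1.52% and 2.04% of *Ep300*, *Crebbp*, *Kdm6a* and *Kdm6b*, H3K27me2 at 1.45% of *Kdm6b* in WT and 0.165% of *Crebbp* in *Ezh1/2* dKO, and 0% elsewhere. The read depth of the peak lists is unknown, so an unlisted peak is not shown to be absent.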

Other observations

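Of the 62 demethylases, bromodomain readers and CBP/p300 partners tested, 3 (4.84%) were called higher in *Ezh1/2* dKO than in *Ezh2* KO, near the 3.52% of all genes called higher in this comparison. Among the lists of enzymes and partners, those pooled here are the ones that held such a call, which raises the percent. None was called higher among 20 further acetyltransferases, 18 deacetylases, 9 MLL3/4 subunits and 12 PRC2 genes. The 3 genes called higher were called in no comparison with WT. *Cited1*, a transactivator that binds CBP and p300, was at 94 and 149 normalized counts in *Ezh1/2* dKO against 5.23 and 27.1 in *Ezh2* KO (log2 difference 3.17, SE 0.80, limma adjusted p = 0.0901). *Smarca2*, an ATPase of the SWI/SNF remodelling complexes, was at 32.1 and 24.9 against 8.36 and 3.87 (limma adjusted p = 0.0763). *Kdm4d*, an H3K9 demethylase, was at 14 and 22.2 against 0 and 0.968, the last value being 1 read (limma adjusted p = 0.0232).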
